A study of Mus musculus with 16 samples.

Results

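Oxidative phosphorylation genes of the nucleus were followed in sorted cells of the mouse olfactory mucosa. The members were all genes of the array whose symbol names a subunit or relative of the 5 respiratory complexes. They were the Nduf genes of the families a, b, c, s and v, Sdha to Sdhd, the Uqcr genes, Cyc1, Cycs, the Cox4 to Cox8 genes and the Atp5 genes. The rule used symbols and no measured value, and it found 95 of 19505 genes. They comprised 36 complex I subunits, 8 complex I assembly factors (Ndufaf genes), 4 subunits of complex II, 9 of complex III, cytochrome c itself (Cycs), 20 genes of complex IV and 17 of complex V. Ndufa4 and Ndufa4l2 were counted with complex IV, in which the protein of the former is now placed.

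The respiratory chain passes electrons from NADH (complex I) and succinate (complex II) through complex III and cytochrome c to oxygen (complex IV). The proton gradient made by complexes I, III and IV drives ATP synthesis by complex V. Most subunits are encoded in the nucleus and imported, and a few core subunits are encoded in the mitochondrial DNA. Olfactory sensory neurons spend ATP on ion gradients and on the cyclic AMP cascade of odor transduction, and part of that ATP is made in mitochondria of the dendrite and cell body.

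All animals were S100a5-tauGFP mice, 24 in all, of both sexes and 7 to 12 weeks old, in which the reporter GFP follows S100a5, a gene of active sensory neurons. They spent 40 h singly in chambers of clean air flowing at 3.1 L/min, and from hour 26 received pulses of 10 s every 20 min, of indole/ionone (odor groups) or of filtered air (vehicle groups). The mucosa of 3 mice at a time was dissociated and sorted, which gave 4 odor and 4 vehicle pools, each with a GFP+ and a GFP- sample, and 50 to 100 ng of total RNA per sample went onto a Clariom S array. The groups were therefore odor GFP+, odor GFP-, vehicle GFP+ and vehicle GFP-, with 4 samples in each, and the GFP- cells are every sorted cell without the reporter signal, neurons and other cells alike.

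Levels are deposited values on a log2 scale, so that a difference of 1 is a doubling, and a level is compared only with that of the same gene. On the 16 arrays the median of 23 antigenomic probes, which match no mouse sequence, ran from 5.63 to 6.05 and served as background. S100a5 was 1.29 ± 0.12 higher in GFP+ cells (SE, n = 8 pools, adjusted p = 7.07e-06), which fits the labels of the sort. Of 11 markers of mature sensory neurons 11 had a GFP+ minus GFP- difference above 0, with a median of 0.21. By limma 6 of the 11 had an unadjusted p under 0.05, where 8466 of 19505 genes did. At an adjusted p under 0.05, 1 of them was higher in GFP+ cells and 0 were lower. At that threshold 10 of 10 neutrophil, 5 of 5 macrophage, 7 of 8 sustentacular and 6 of 7 immature neuron markers were lower. Respiratory ciliated markers went the other way, with 2 of 3 higher and 0 lower. In the bulk RNA of a sample, fewer cells of a type and less RNA per cell cannot be told apart. The GFP- array of odor replicate 3 had the weakest separation of positive from negative control probes (area under the curve 0.865, against 0.880 to 0.909 on the other arrays). Its values touch several results below.

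In GFP+ cells most of these genes lay a little above their level in GFP- cells. Over both arms 91 of 95 members had a difference above 0, with a median of 0.29, where 67.3% of all genes were above 0 with a median of 0.12. Past the threshold, an adjusted p under 0.05 over all 19505 genes, were 18 members, 16 higher and 2 lower. Of all genes 32.2% were called, 18.3% higher and 13.9% lower. The share of members called higher, 16.8%, was thus close to the background share, and that of members called lower, 2.11%, was under it. The SE of a member's difference ran from 0.09 to 0.33 with a median of 0.14. An unadjusted p under 0.05 by limma was found for 43 of 95 members and for 8466 of 19505 genes, a similar share.

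**Figure D1:**
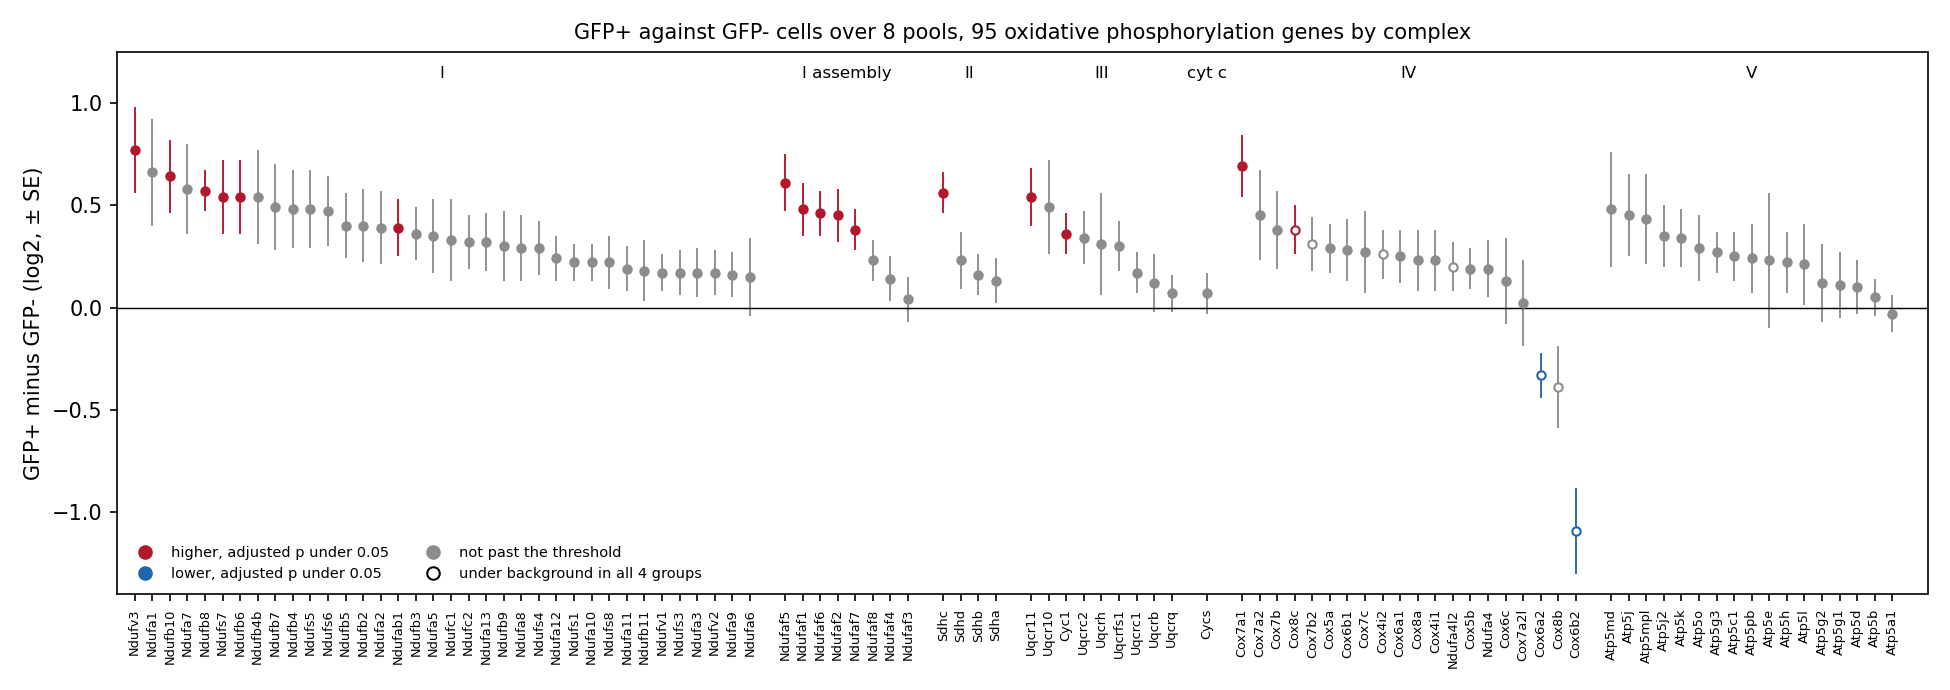
GFP+ minus GFP- difference (log2, vertical axis) of each of the 95 members over 8 pools, ordered within each class, with bars of 1 SE from limma. Red points are higher and blue points lower at an adjusted p under 0.05, and open points lie under background in all 4 groups; all 36 complex I subunits lie above 0, and the lowest point is Cox6b2, one of the open points, whose size is not read.

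Complex I, the NADH dehydrogenase, had 36 of 36 subunits above 0, with a median of 0.34, and 6 passed. In odor pools 1 to 4, Ndufb8, an accessory subunit of the membrane arm, stood at 9.11, 9.0, 9.27 and 9.06 in GFP+ cells and at 8.49, 8.56, 8.42 and 8.60 in GFP- cells. Vehicle pools 1 to 4 gave 8.81, 9.40, 9.65 and 9.01 in GFP+ cells and 8.53, 8.83, 8.79 and 8.53 in GFP- cells. GFP+ was the higher fraction in each of the 8 pools, with no overlap in the odor arm and a small one in the vehicle arm. The difference was 0.57 ± 0.10 (SE, n = 8 pools, adjusted p = 9.61e-04).

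Ndufv3, a small subunit of the NADH-binding module, had the largest positive difference of the 95, 0.77 ± 0.21 (adjusted p = 0.016). Its odor levels were 10.04, 10.21, 10.34 and 10.20 in GFP+ cells against 9.85, 9.67, 8.04 and 9.65 in GFP- cells. In vehicle pools they were 9.79, 10.29, 10.66 and 10.17 against 9.65, 9.69, 9.48 and 9.51. GFP+ cells were higher in all pools, and the size rested in part on the low GFP- value of odor replicate 3. The difference was 0.53 without that pool (adjusted p = 0.0116) and 0.45 without both pools numbered 3 (adjusted p = 0.0184), and it lost its call under ordinary variances (adjusted p = 0.0765).

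Ndufb10, another membrane arm subunit, stood at 8.44, 8.27, 8.30 and 8.38 in odor GFP+ cells and at 8.40, 7.89, 6.86 and 8.14 in odor GFP- cells. In vehicle pools it was at 8.16, 8.20, 8.79 and 8.03 against 7.86, 7.28, 7.24 and 7.76. It was higher in GFP+ cells of every pool, by 0.64 ± 0.18 on average (adjusted p = 0.0185). Ndufb10 lost this call when both pools numbered 3 were left out (adjusted p = 0.0522) and under ordinary variances (adjusted p = 0.0761). Ndufs7, a core subunit that carries the last iron-sulfur cluster before ubiquinone, differed by 0.54 ± 0.18 (adjusted p = 0.0413). Its levels ran from 13.59 to 13.70 in odor GFP+ and from 13.41 to 14.18 in vehicle GFP+ cells, against 11.96 to 13.56 and 13.11 to 13.34 in GFP- cells. The call on Ndufs7 ended in 8 of 18 alternatives, among them the omission of odor replicate 1 or 3 and of vehicle replicate 2, 3 or 4 (adjusted p from 0.0541 to 0.104). Ndufb6 (0.54 ± 0.18, adjusted p = 0.0445) and Ndufab1, the acyl carrier protein of the complex (0.39 ± 0.14, adjusted p = 0.0474), lay just inside the threshold, and Ndufb3 (0.36 ± 0.13, adjusted p = 0.051) just outside it. The call on Ndufb6 ended in 9 of 18 alternatives, among them the omission of odor replicate 1, 2 or 3 or vehicle replicate 2, 3 or 4 (adjusted p from 0.0562 to 0.109). That on Ndufab1 ended in 10 of 18, among them the omission of odor replicate 1, 3 or 4 or vehicle replicate 2, 3 or 4 (adjusted p from 0.0533 to 0.114).

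The other listed core subunits of complex I did not pass. Ndufs1, the largest subunit of the electron input arm, differed by 0.22 ± 0.09 and was higher in GFP+ cells of all 8 pools (adjusted p = 0.0986). Ndufv1, which holds the flavin, differed by 0.17 ± 0.09, Ndufv2 by 0.17 ± 0.11, Ndufs3 by 0.17 ± 0.11 and Ndufs8 by 0.22 ± 0.13, with adjusted p from 0.177 to 0.267. Ndufa1, a small subunit encoded on the X chromosome, had a mean difference of 0.66 with an SE of 0.26 (adjusted p = 0.0773). Its GFP- levels fell apart by pool, at 9.23 in odor replicate 3 and 9.44 in vehicle replicate 3 against 10.27 to 11.20 in the other 6 pools.

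Complex I assembly factors, which build the complex and leave it, were above 0 in 8 of 8 with a median of 0.41, and 5 passed. Ndufaf5, a hydroxylase of Ndufs7, stood at 9.18, 8.58, 9.11 and 9.14 in odor GFP+ cells and at 8.52, 8.52, 7.70 and 8.13 in odor GFP- cells. Vehicle levels were 8.70, 9.13, 8.78 and 8.37 against 8.53, 8.33, 8.22 and 8.18. Each pool had the higher level in GFP+ cells, though the 2 groups overlapped in the vehicle arm, and the difference was 0.61 ± 0.14 (adjusted p = 0.0079). Ndufaf6 followed with 0.46 ± 0.11 (adjusted p = 0.00697), higher in GFP+ cells in 7 of 8 pools, vehicle replicate 1 being the exception with 7.33 against 7.54. Ndufaf1, a factor of the membrane arm, differed by 0.48 ± 0.13 (adjusted p = 0.0138), Ndufaf7, a methyltransferase, by 0.38 ± 0.10 (adjusted p = 0.0167), and Ndufaf2 by 0.45 ± 0.13 (adjusted p = 0.0249). Ndufaf1 and Ndufaf7 were higher in GFP+ cells of 8 of 8 pools, and both lost the call only when both pools numbered 3 were left out (adjusted p = 0.056 and 0.0543). Ndufaf2 lost it in 7 of 18 alternatives, among them the omission of odor replicate 1 or 3 or vehicle replicate 3 or 4 (adjusted p from 0.0505 to 0.0611). Ndufaf3, Ndufaf4 and Ndufaf8 differed by 0.04, 0.14 and 0.23 and did not pass.

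Complex II, succinate dehydrogenase, had 1 of 4 subunits past the threshold. Sdhc, a membrane anchor that holds the heme, stood at 11.85, 11.83, 11.67 and 12.00 in GFP+ cells of odor pools and at 11.45, 11.43, 11.06 and 11.26 in their GFP- cells. In vehicle pools it was at 11.84, 12.10, 12.14 and 11.94 against 11.38, 11.15, 11.55 and 11.64. Every GFP+ sample lay above every GFP- sample, across both arms, and the difference was 0.56 ± 0.10 (SE, n = 8 pools, adjusted p = 0.00133). Sdha, the flavoprotein, differed by 0.13 ± 0.11, Sdhb, the iron-sulfur protein, by 0.16 ± 0.10, and Sdhd, the other anchor, by 0.23 ± 0.14, none of them past the threshold. In each of the 8 pools, Sdhc was higher in GFP+ cells, while Sdha was lower there in vehicle replicates 1 and 4 and in odor replicate 4.

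**Figure D2:**
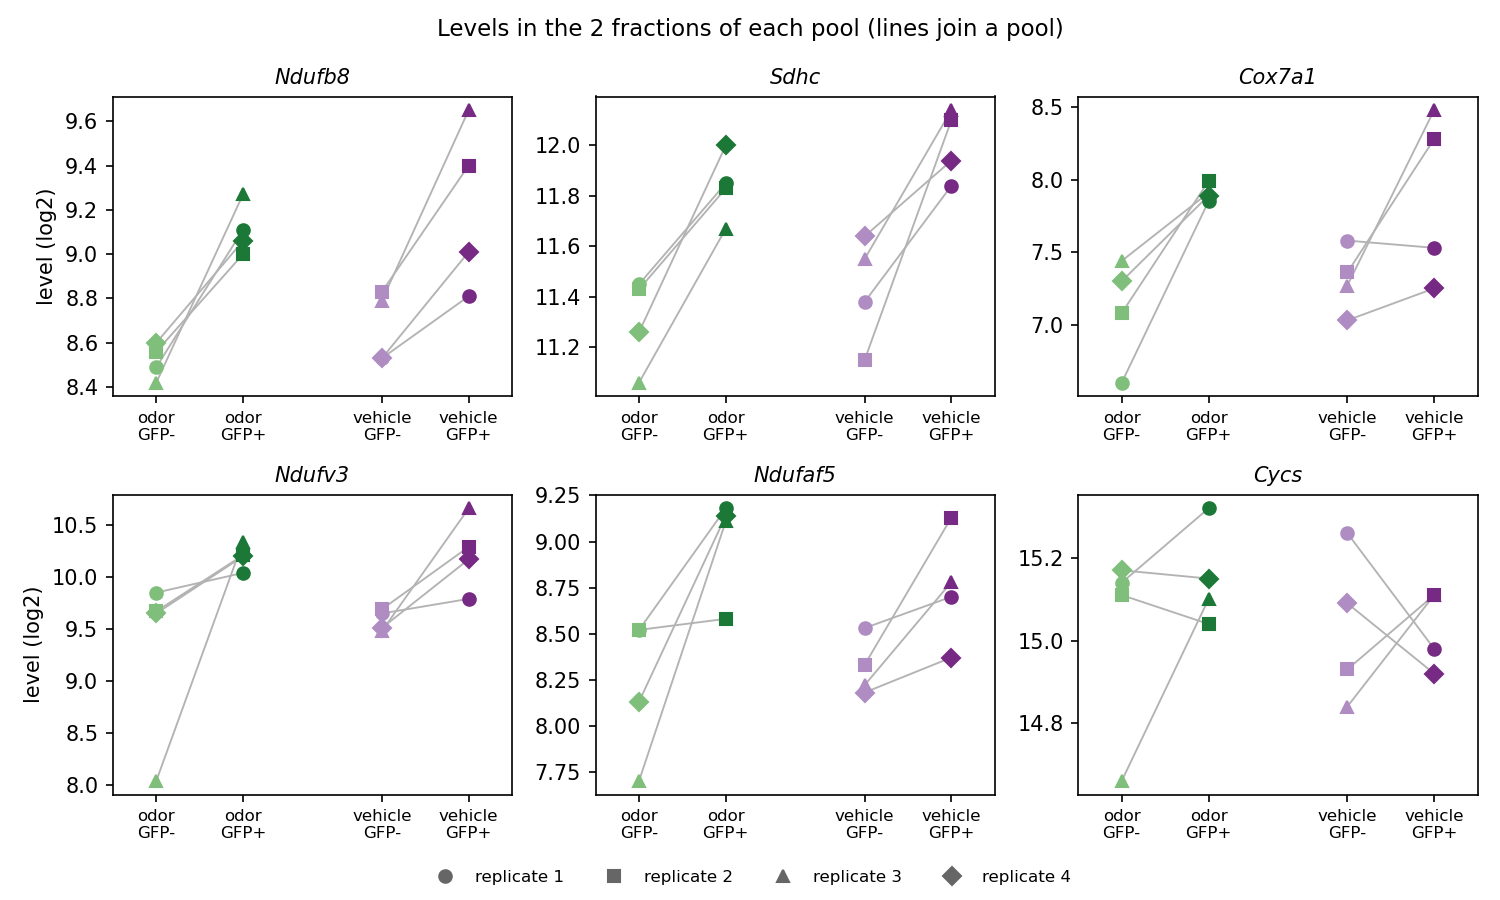
Levels (log2, vertical axis, a scale of its own in each panel) of 6 members in the GFP- and GFP+ sample of each pool, with lines joining a pool and symbols giving the replicate. Lines rise in 8 of 8 pools for Ndufb8, Sdhc, Ndufv3 and Ndufaf5 and in 7 of 8 for Cox7a1, while those of Cycs rise in some pools and fall in others.

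Complex III, which hands electrons to cytochrome c, had 9 of 9 members above 0 with a median of 0.31, and 2 passed. Uqcr11, a small accessory subunit, stood at 6.59, 6.75, 6.86 and 7.33 in odor GFP+ cells against 6.25, 6.25, 6.08 and 6.0. Vehicle levels were 6.47, 6.60, 6.91 and 6.66 against 6.70, 6.39, 6.11 and 6.08, with GFP+ lower in vehicle replicate 1 alone. Its difference was 0.54 ± 0.14 (adjusted p = 0.0135), at levels only a little over background. Cyc1, the cytochrome c1 heme protein, ran from 10.87 to 11.28 in odor GFP+ cells against 10.36 to 10.76 in odor GFP- cells, with no overlap, and from 10.80 to 11.17 against 10.61 to 10.78 in vehicle pools. It was higher in GFP+ cells of every pool, by 0.36 ± 0.10 (adjusted p = 0.0205). The call on Cyc1 ended in 4 of 18 alternatives, among them without odor replicate 2 (adjusted p = 0.053) and without vehicle replicate 2 (adjusted p = 0.0638). The other 2 left out both pools numbered 3, or odor replicate 3 and vehicle replicate 1, and the highest adjusted p was 0.0761. The call on Uqcr11 ended without both pools numbered 3 (adjusted p = 0.0647) and under ordinary variances. The core protein Uqcrc1 differed by 0.17 ± 0.10, Uqcrc2 by 0.34 ± 0.13 (adjusted p = 0.0651) and the Rieske protein Uqcrfs1 by 0.30 ± 0.12 (adjusted p = 0.0744).

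Cycs, the mobile carrier cytochrome c, had levels of 14.66 to 15.32 on the 16 arrays. Its difference of 0.07 ± 0.10 did not exceed its error (adjusted p = 0.652), and it was lower in GFP+ cells in 4 of 8 pools.

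Complex IV, cytochrome c oxidase, contains isoforms that other tissues restrict. Of its 12 broadly expressed members 12 lay above 0, with a median of 0.24, and 0 passed. At an unadjusted p under 0.05 stood 1 of the 12, under the share of all genes. Cox4i1 differed by 0.23 ± 0.15, Cox5a by 0.29 ± 0.12, Cox5b by 0.19 ± 0.10, Cox6c by 0.13 ± 0.21 and Cox7c by 0.27 ± 0.20. Cox5a, with an adjusted p of 0.0852, was the nearest to the threshold among these. Cox7a2l, a factor that joins complexes III and IV in supercomplexes, differed by 0.02 ± 0.21. It was lower in GFP+ cells in 3 of 4 vehicle pools and higher in 3 of 4 odor pools.

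Cox7a1, known as the heart and skeletal muscle form of subunit 7a, lay over background in every sample, though its lowest GFP- level, 6.60, was not far above it. Odor levels were 7.85, 7.99, 7.91 and 7.89 in GFP+ cells and 6.60, 7.08, 7.44 and 7.30 in GFP- cells. Vehicle levels were 7.53, 8.28, 8.48 and 7.25 against 7.58, 7.36, 7.27 and 7.03. GFP+ cells were higher in 7 of 8 pools, vehicle replicate 1 being nearly level, and the difference was 0.69 ± 0.15 (SE, n = 8 pools, adjusted p = 0.00458). Its counterpart Cox7a2 differed by 0.45 ± 0.22 without passing (adjusted p = 0.141). Of 6 muscle genes listed beside it, 0 differed and 5, among them Acta1, Myh4 and Mb, lay under background in all 4 groups. The summed level of the 6 ran from 9.01 to 9.74 on the log2 scale over the 16 arrays.

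The remaining 7 restricted isoforms, Cox4i2, Cox6a2, Cox6b2, Cox7b2, Cox8b, Cox8c and Ndufa4l2, had group means under background in all 4 groups, so that their differences are not read as levels of a transcript. Of the 18 calls, Cox6b2 (lower, adjusted p = 0.00202), Cox6a2 (lower, adjusted p = 0.0387) and Cox8c (higher, adjusted p = 0.0295) fall in this set, and no size is given for them. Cox6b2, a testis isoform, lay between 2.84 and 3.81 in GFP+ and between 3.41 and 4.95 in GFP- samples. Their broad counterparts Cox4i1, Cox6a1, Cox6b1, Cox7b, Cox8a and Ndufa4 lay over background on all arrays, with differences from 0.19 to 0.38 that did not pass. Without these 7, 15 of 88 members were higher and 0 lower.

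Complex V, the ATP synthase, had 16 of 17 members above 0 with a median of 0.24, and 0 passed. At an unadjusted p under 0.05 stood 4 of the 17, under the share of all genes. The catalytic subunits gave small differences with small errors. Atp5a1, the alpha subunit, differed by -0.03 ± 0.09 and Atp5b, the beta subunit, by 0.05 ± 0.09. Atp5b lay between 17.23 and 17.52 on the 16 arrays, and the highest value of any probe was 19.35. Atp5c1, the gamma subunit of the rotor shaft, differed by 0.25 ± 0.12. The 3 genes for subunit c, which encode the same mature protein, differed by 0.11 ± 0.16 (Atp5g1), 0.12 ± 0.19 (Atp5g2) and 0.27 ± 0.10 (Atp5g3), the last with an adjusted p of 0.0548. Atp5md, a small membrane subunit, gave 0.48 with an SE of 0.28. Its GFP- level was 12.08 in odor replicate 3 and 12.98 in vehicle replicate 3 against 13.76 to 14.28 elsewhere. In vehicle replicate 1 its difference was reversed, at -1.07.

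The spread between pools was as large as the shift. The median member difference was 0.24, 0.23, 0.88 and 0.13 in odor pools 1 to 4 and -0.38, 0.23, 0.66 and 0.14 in vehicle pools 1 to 4. Members higher in GFP+ cells numbered 84, 83, 89 and 74 of 95 in odor pools and 22, 87, 88 and 81 in vehicle pools. Vehicle replicate 1 thus ran against the other 7, and both pools numbered 3 gave the largest medians. The median over all genes was nearly level, at 0.05 to 0.11 in the 8 pools.

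**Figure D3:**
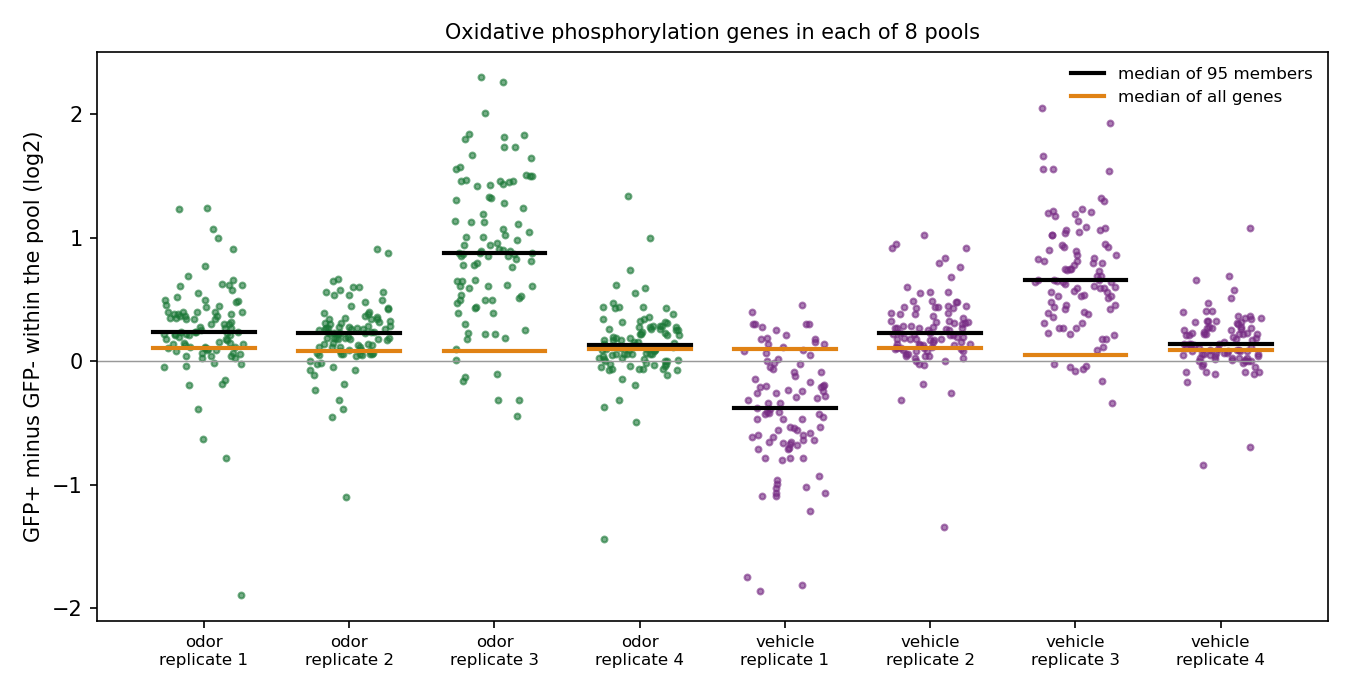
GFP+ minus GFP- difference (log2, vertical axis) of the 95 members within each of the 8 pools, 1 point per gene, with the member median (black) and the median of all genes (orange). The member median is 0.88 in odor replicate 3 and -0.38 in vehicle replicate 1, while the median of all genes stays between 0.05 and 0.11.

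Ribosomal protein genes moved by pool as well. The median of 63 cytosolic ribosomal protein genes was -0.41, -0.40, 0.48 and -0.40 in odor pools and -1.43, -0.39, 0.26 and -0.55 in vehicle pools. That of 76 mitochondrial ribosomal protein genes was 0.28, 0.21, 0.89 and 0.12 in odor pools and -0.07, 0.26, 0.60 and 0.13 in vehicle pools. In both lists the pools numbered 3 had the highest medians and vehicle replicate 1 the lowest, as among the members. The 2 pools numbered 3 also differed in 3 genes of the Y chromosome. Levels were 2.76 to 4.09, under background, in these pools, against 6.42 to 12.09 in the other 6. Sex therefore cannot be told apart from other traits of the pools numbered 3, nor from their omission. The part of RNA quality, array quality and the animals in a pool, their sex included, in these shifts was not tested.

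Counts of calls followed the pools. Without vehicle replicate 1, 38 members passed over both arms, 37 of them higher, where 15.4% of all genes were higher. Without each other pool in turn 12 to 18 members passed, where 13.6% to 16.5% of genes were higher. With both pools numbered 3 left out 8 passed, 7 of them higher (16.2% of genes), the member median being 0.11. With odor replicate 3 and vehicle replicate 1 left out 31 did, 30 of them higher (15% of genes). Both of these omissions were chosen after seeing the data. Median centring of the arrays, which raised the median of all genes from 0.12 to 0.31, gave 73 members higher and 1 lower, with a member median of 0.47. Of all genes 50.8% were then called higher, in place of 18.3%. Higher calls made up 81.6% of all calls over the genes, in place of 56.8%. Ndufb8, Sdhc, Cox7a1, Ndufaf5 and Ndufaf6 were called under all 18 alternatives run.

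GFP+ exceeded GFP- in all 8 pools for 14 members, 14.7%, where 12.8% of all genes did so. The 14 were Cyc1, Sdhc, Cox8c, the assembly factors Ndufaf1, Ndufaf5, Ndufaf7 and Ndufaf8, and the complex I subunits Ndufa10, Ndufab1, Ndufb8, Ndufb10, Ndufs1, Ndufs7 and Ndufv3. GFP- exceeded GFP+ in all 8 pools for Cox6b2 alone, 1.05% of members against 11.4% of genes.

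Promoters are shown because members of one pathway can share short sequence motifs near the gene start. RefSeq (GRCm38.p6) gave a window from 250 bases before to 50 bases after the start for 78 of the 95 members, and for 15691 genes of the array. Searched on both strands were the motif of nuclear respiratory factor 1 (NRF1) in its full form of 10 bases and as its core GCATGCGC, which the full form contains on both strands, an ETS motif bound by the GABP factor as ACCGGAAG, and a YY1 motif as AAGATGGC. The NRF1 core occurred in 13 members (16.7%) against 4.1% of all genes, and the full motif in 7 (9.0%) against 1.56%. ETS matched in 8 members (10.3%, all genes 3.43%) and YY1 in 11 (14.1%, all genes 3.64%). At least 1 of the 3 was present in 31 members (39.7%), against 10.54% of genes. A match is a description of letters and not a bound site.

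Stretches with an NRF1 motif upstream of the start are given with 20 bases on each side, 5′ to 3′ on the strand of the gene, with the motif in capitals. Full motifs were taken from Atp5g2 (15:102671060-102671109, minus strand, first base 42 bases before the start), Atp5k (5:108434420-108434469, minus, 50 before), Cox6a1 (5:115349091-115349140, minus, 162 before), Ndufa11 (17:56717682-56717731, plus, 60 before) and Ndufaf4 (4:24897950-24897999, plus, 113 before). Core motifs were taken from Cycs (6:50566602-50566649, minus, 60 before) and Sdhb (4:140961197-140961244, plus, 54 before).
Atp5g2: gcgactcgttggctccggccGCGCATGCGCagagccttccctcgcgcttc
Atp5k: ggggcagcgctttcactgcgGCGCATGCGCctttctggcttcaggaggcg
Cox6a1: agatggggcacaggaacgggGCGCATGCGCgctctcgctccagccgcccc
Ndufa11: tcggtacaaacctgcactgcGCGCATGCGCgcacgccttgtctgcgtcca
Ndufaf4: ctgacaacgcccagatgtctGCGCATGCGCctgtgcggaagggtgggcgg
Cycs: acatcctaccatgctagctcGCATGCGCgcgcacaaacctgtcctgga
Sdhb: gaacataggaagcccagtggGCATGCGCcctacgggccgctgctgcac
None of these 7 genes passed the threshold between fractions. Ndufaf5 and Uqcrc1 held the full motif after the start and are not printed, and of these Ndufaf5 passed.

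YY1 matches lay downstream, within 10 to 38 bases after the start, in 9 of the 11 members that had one, and 7 of the 11 were complex I subunits. They are given with 11 bases before the motif and up to 11 after it, cut where the window ended, for Ndufb8 (19:44555393-44555415, minus, 38 after the start), Ndufs7 (10:80249462-80249491, plus, 24 after), Ndufs4 (13:114388045-114388070, minus, 35 after) and Ndufs6 (13:73328433-73328460, minus, 33 after).
Ndufb8: cggagaaggtgAAGATGGCtgcc
Ndufs7: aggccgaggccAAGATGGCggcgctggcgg
Ndufs4: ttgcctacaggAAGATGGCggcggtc
Ndufs6: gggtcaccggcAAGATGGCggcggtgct
Of members called higher in GFP+ cells, 6 of the 12 with a window had at least 1 of the 3 motifs, and of those not called 25 of 65 did. Among the former were Ndufb8 and Ndufs7 with YY1, Ndufaf5 with the full NRF1 motif, Uqcr11 with its core, and Ndufaf1 and Ndufb6 with ETS.

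Within each arm fewer members passed. In odor pools the median was 0.39, with 7 members higher and 1 lower, where 7.96% of genes were higher and 10.6% lower (18.6% in all). The 7 were Ndufaf6, Ndufb8, Ndufaf5, Sdhc, Cox7a1, Uqcr11 and Ndufaf1, and the lower one was Cox6b2. In vehicle pools the median was 0.18, with Sdhc and Ndufb8 higher and Cox6b2 lower, where 8.86% of genes were higher and 10.8% lower (19.7% in all). The odor median fell to 0.21 without odor replicate 3. The vehicle median was 0.02 without vehicle replicate 3, with 53 of 95 above 0, and 0.36 without vehicle replicate 1, with 91 of 95 above 0. Without vehicle replicate 2 none of these 3 passed in vehicle pools (5.2% of genes were higher). Without vehicle replicate 1 there were 6 members, all higher (5.18% of genes). Leaving out 1 odor pool at a time brought the odor count of 8 to between 4 and 5, where 4.98% to 5.7% of genes were higher. In odor pools 30 members, 31.6%, had all 4 GFP+ samples above all 4 GFP- samples, against 11.1% of genes, and in vehicle pools 8, 8.42%, did, against 10.9%.

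Class medians were also taken for each sample. In GFP+ cells the median deviation of the 36 complex I subunits from their own mean over the 16 arrays was 0.24, 0.12, 0.24 and 0.18 in odor samples and -0.14, 0.21, 0.41 and 0.09 in vehicle samples. In GFP- cells it was -0.05, -0.14, -0.86 and -0.01 in odor samples and 0.19, -0.09, -0.35 and -0.12 in vehicle samples. The GFP- sample of odor replicate 3 lay apart, and there only 6 of 95 members exceeded their own mean. Complex V was at -0.86 in that sample, complex III at -0.65, and complexes II and IV at -0.54 each.

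**Figure D4:**
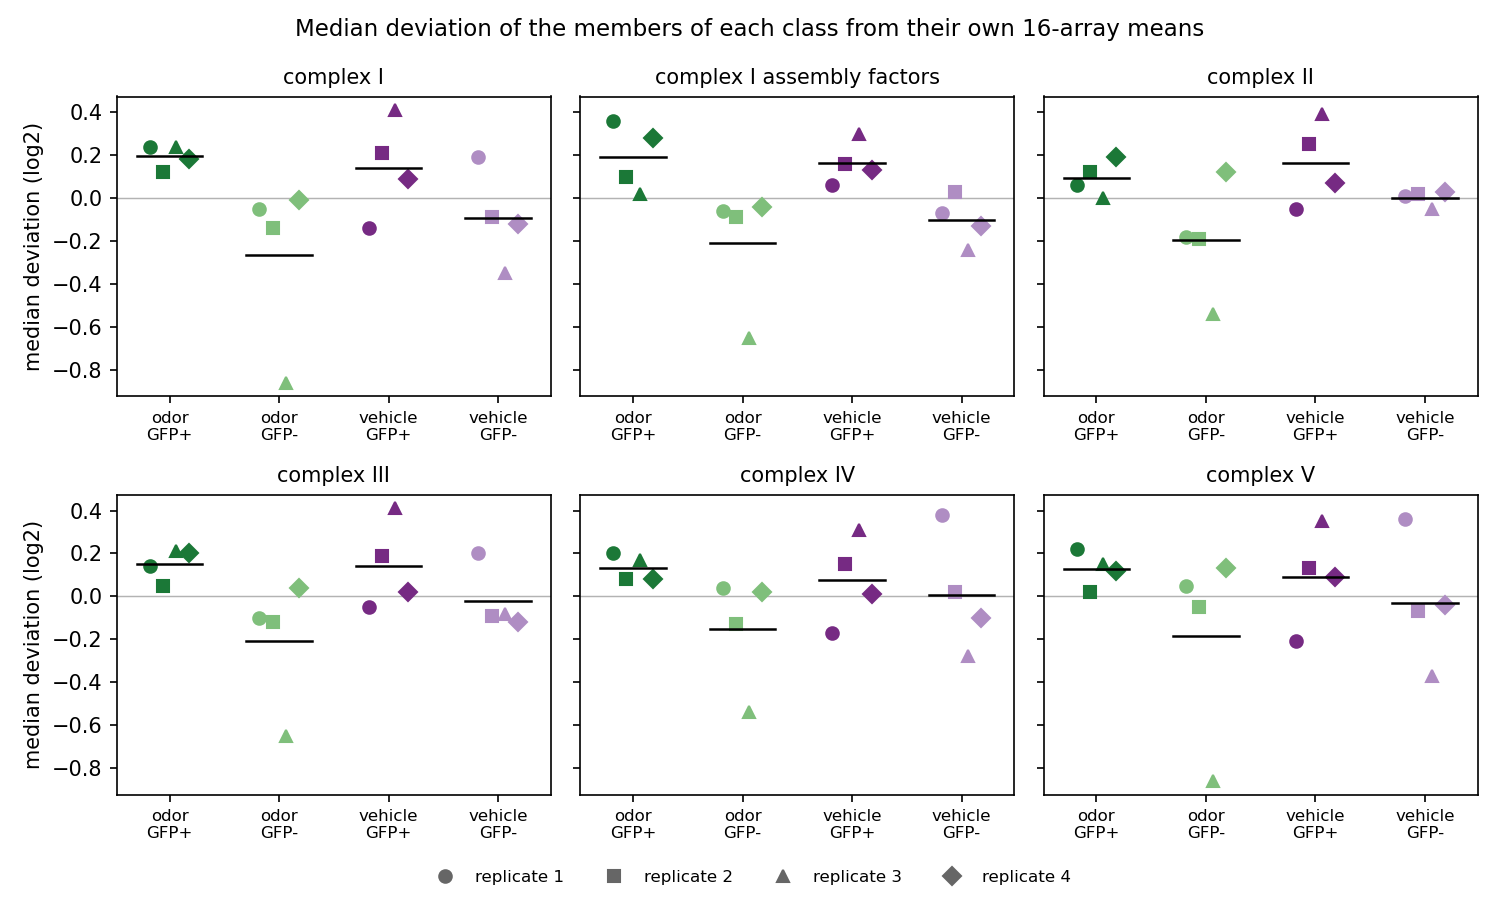
Median deviation (log2, vertical axis) of the members of each class from their own mean over the 16 arrays, 1 point per sample with its symbol giving the replicate and the horizontal line the mean of the 4 samples of a group. In 6 of 6 panels the lowest point is the GFP- sample of odor replicate 3, at -0.54 to -0.86.

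Odor was then compared with vehicle, the question the exposure was made for. The GFP+ over GFP- difference of the members was larger in odor pools by a median of 0.19, with 82 of 95 above 0, and 0 passed. Of all genes 51.1% were above 0, with a median of 0.01. Of all genes 0 passed (0%) by limma, with 654 genes and 0 members at an unadjusted p under 0.05. Ordinary variances, with no moderation across genes, also gave 0 members. The SE of these differences ran from 0.17 to 0.66 with a median of 0.29, above the median shift itself. By class the medians were 0.17 for complex I, 0.21 for its assembly factors, 0.13 for complex II, 0.27 for complex III, 0.34 for the 12 broadly expressed members of complex IV and 0.20 for complex V. The highest member was Uqcr10 at 0.79. Cytosolic ribosomal protein genes were above 0 in 62 of 63, with a median of 0.36, and 57 of 76 mitochondrial ones were, with a median of 0.15. Without odor replicate 3 the median over all members was 0.03, without vehicle replicate 1 it was 0.04, and without vehicle replicate 3 it was 0.35. With both pools numbered 3 left out it was 0.20, with 75 of 95 above 0. Odor replicate 3 had the highest member median of the odor pools and vehicle replicate 1 the lowest of the vehicle pools. With both of these left out, a choice made after seeing the data, the median over all members was -0.13.

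In GFP+ cells alone, odor minus vehicle had a member median of 0.05, with 61 of 95 above 0, where 50.7% of all genes were above 0. Without vehicle replicate 1 the median turned to -0.05, with 31 of 95 above 0, and without odor replicate 3 as well it was -0.06. It was 0.03 without odor replicate 3 alone, 0.12 without vehicle replicate 3 and 0.11 with both pools numbered 3 left out. Of the members 0 passed (0% of genes, with 1070 genes and 0 members at an unadjusted p under 0.05 by limma). No member differed by more than 0.39, with SEs of 0.11 to 0.29. That member was Uqcr10, a small complex III subunit, at 11.18, 10.79, 10.92 and 10.84 after odor and 9.85, 10.85, 11.36 and 10.12 after vehicle. Its groups overlapped, and the difference was 0.39 ± 0.29. The 4 complex II genes were all slightly lower after odor, by a median of -0.08, and Sdhc stood at -0.17 ± 0.13. For Ndufb2, 10.38, 10.28, 10.27 and 10.51 after odor lay above or, at the printed precision, level with 10.10, 10.16, 10.18 and 10.27 after vehicle, which made it the 1 member (1.05%) without overlap, against 1.74% of genes. Its difference was 0.18 ± 0.12 (adjusted p = 0.932). For 0 members did all odor samples lie under all vehicle samples, where 1.47% of genes did.

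In GFP- cells, odor minus vehicle had a median of -0.16, with 12 of 95 above 0, where 48.8% of all genes were above 0. Of the members 0 passed, while 1 gene of all (0.00513%) did. At an unadjusted p under 0.05 stood 697 genes and 0 members. Atp5o, the stalk subunit of complex V, had the lowest value, -0.48, followed by Cox7a2l at -0.43 ± 0.30 and Atp5e at -0.41. Ndufaf4 was the 1 member (1.05%, of all genes 1.11%) with every odor sample, at 12.77, 12.71, 12.20 and 12.77, under every vehicle sample, at 13.01, 12.83, 12.98 and 12.83. Its difference was -0.30 ± 0.17 (adjusted p = 1). The opposite order occurred for 0 members and 1.37% of genes. Without odor replicate 3 the median of the members was 0.01, with 50 of 95 above 0, without vehicle replicate 1 it was -0.07, and without both it was 0.12. Without odor replicate 4 it was -0.27, and with both pools numbered 3 left out it was -0.10, with 30 of 95 above 0. The GFP+ over GFP- comparison of the arms shares these samples with both odor comparisons.

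Neighbouring genes of mitochondrial energy metabolism were read from lists, over both arms. Each count in this and the next 2 paragraphs stands beside 18.3% of all genes called higher and 13.9% called lower. Of 40 assembly factors outside the symbol rule, 8 were higher in GFP+ cells and 0 lower, with a median of 0.30. Lyrm7, a chaperone of the Rieske protein, differed by 0.63 ± 0.12 (adjusted p = 0.00242), Cox15, which makes heme a, by 0.45 ± 0.10 and Ttc19, a complex III factor, by 0.46 ± 0.11. Of 15 citrate cycle genes 2 were higher and 0 lower, with a median of 0.18, namely Idh3b of isocitrate dehydrogenase (0.38 ± 0.10) and Dlat of pyruvate dehydrogenase (0.34 ± 0.10). Of 9 genes for ADP/ATP and outer membrane transport 0 passed, with a median of 0.10. Slc25a5, the carrier that exchanges ADP for ATP, differed by 0.10 ± 0.09.

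Regulators of mitochondrial genes had 3 of 13 higher and 0 lower, with a median of 0.13. Ppargc1a, a coactivator of mitochondrial gene expression, had mean levels of 14.25 and 14.36 in GFP+ cells of odor and vehicle pools and of 13.66 and 13.55 in GFP- cells. It differed by 0.70 ± 0.13 (adjusted p = 0.00157), and its relative Ppargc1b by 0.59 ± 0.16 (adjusted p = 0.0157). Nrf1 (-0.18 ± 0.10), Gabpa (-0.21 ± 0.09) and Yy1 (-0.13 ± 0.10), the factors of the motifs above, did not pass. Of 5 genes for reactive oxygen defence in the organelle 1 was higher, the thioredoxin Txn2 at 0.48 ± 0.13 (adjusted p = 0.0135).

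Glycolysis went both ways, with 2 of 20 genes higher and 8 lower and a median of -0.01. Ldha, the lactate dehydrogenase subunit common in glycolytic cells, differed by -3.45 ± 0.19 (adjusted p = 6.84e-08), with mean levels of 7.96 and 7.78 in GFP+ cells of odor and vehicle pools against 11.27 and 11.37. The glucose transporter Slc2a3 and the lactate carriers Slc16a1 and Slc16a3 were also lower in GFP+ cells (adjusted p from 8.33e-08 to 2.78e-05). Their GFP+ means lay under background, so that no size is given, and their GFP- means ran from 7.46 for Slc16a1 to 9.0 for Slc16a3. Eno2, the neuronal enolase, was higher by 1.01 ± 0.13 and the phosphofructokinase Pfkm by 0.28 ± 0.09. Ldhb (-0.01 ± 0.09), Pkm (-0.01 ± 0.09) and Gapdh (0.18 ± 0.10) did not pass. Beside these values, the summed level of the 10 neutrophil markers ran from 18.02 to 19.46 in GFP- and from 8.77 to 10.32 in GFP+ samples, where 6 of the 10 lay under background. The sum of 5 macrophage markers ran from 13.91 to 16.04 in GFP- and from 8.94 to 10.60 in GFP+ samples. The part of these cells in the differences was not tested.

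**Figure D5:**
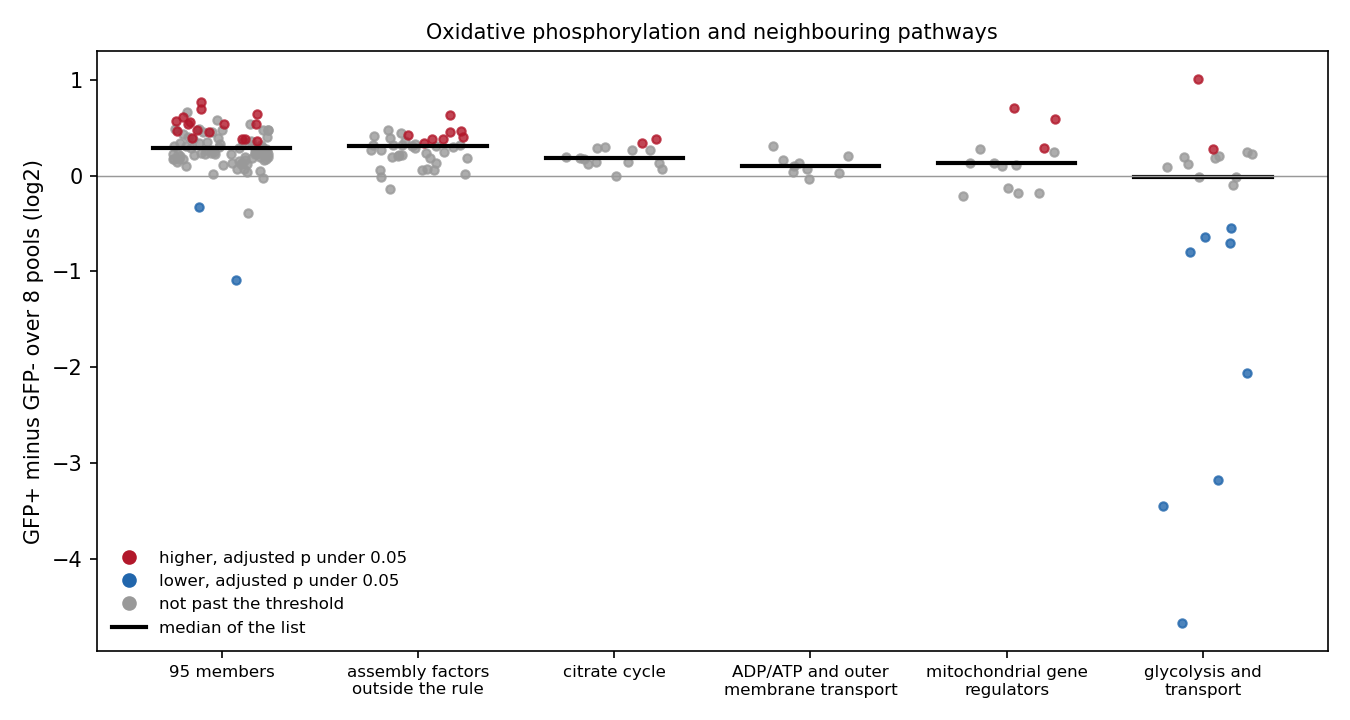
GFP+ minus GFP- difference (log2, vertical axis) over 8 pools for the 95 members and 5 neighbouring gene lists, 1 point per gene, red where higher and blue where lower at an adjusted p under 0.05, with the list median in black. The medians of the members and of the other assembly factors are 0.29 and 0.30, and the lowest points of the glycolysis list include Slc2a3, Slc16a1 and Slc16a3, whose GFP+ means lie under background and whose size is not read.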

How the data were processed

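Of 16 samples, each 1 Clariom S array, the deposited values of 28846 probes were used. The authors' values were made with Affymetrix Expression Console, per the submitters' processing notes. Version, background correction and normalization are unstated (not given in the sources used here), and log2 was inferred from the range of the deposited values. Of the probes 19572 had 1 symbol (19505 genes, the brightest of several probes standing for a gene), and all 95 members had 1 probe and a RefSeq match.

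Fractions were compared with limma 3.58.1 in R 4.3.3 on the 8 within-pool differences, with the arm as a term. Odor was compared with vehicle in 8 GFP+ and 8 GFP- samples. All tests were two-sided, with Benjamini-Hochberg adjustment across 19505 genes and a threshold of 0.05. Each p-value thus reflects variation among pools, each of 3 mice. The limma fits were run on simulated data, with planted shifts larger than those of most members and with noise independent between samples. Shifts as small as the member median and correlated fractions of a pool were not covered. Fractions of a pool deviated together (correlations 0.109 to 0.249), and same-numbered pools of the arms at 0.114 to 0.242 in GFP+ and 0.066 to 0.332 in GFP- cells. The number 3 stands in the titles of 2 vehicle pools, of which the one with the higher pool code is called 4 here.

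Members and lists were chosen with earlier results of these data known, and both ribosomal lists were added last. Named were fixed core subunits and isoform sets, up to 12 called members per comparison by p-value, and the 3 highest and lowest. Ndufaf2, Ndufb6, Ndufab1, Ndufb3, Ndufaf3, Ndufaf8, Ndufb2, Sdhd, Ndufa10, Atp5md and the motif examples fall outside this rule and were named after their values were seen. Alternatives were other scalings, a filter on dim genes, variance models, blocks and each pool left out.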

Additional observations from a re-analysis of the deposited data

Results flagged for a closer look

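In groups of 4 samples, the value of 1 sample was set against the range of its group for 48 class medians and 72 levels of called members, and 10 lay farther from the rest than Dixon's limit of 0.829. Chance alone would do this in about 1 in 20 groups. Most belonged to odor replicate 3. Its GFP- sample had median deviations of -0.86 for complex I (the other 3 at -0.14 to -0.01), -0.65 for the complex I assembly factors (-0.09 to -0.04) and -0.40 for cytochrome c (0.05 to 0.11). The GFP+ minus GFP- median of that pool was 0.88 for all members (0.13 to 0.24 in the other odor pools), 1.14 for complex I (0.20 to 0.31) and 0.85 for complex III (0.19 to 0.30). Ndufv3 stood at 8.04 in that GFP- sample, against 9.65 to 9.85.

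The complex III median of GFP- cells was 0.20 in vehicle replicate 1, against -0.12 to -0.08 in the others. Ndufaf5 was at 8.58 in GFP+ cells of odor replicate 2 (9.11 to 9.18 in the others), and Ndufs7 at 13.11 in GFP- cells of vehicle replicate 3 (13.32 to 13.34).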

How the results depend on the processing

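Every called member kept its direction under all alternatives run. The count of members called over both arms (18) was 74 with median centring, 10 with ordinary variances and 29 with the pool as a random block. It was 8 with both pools numbered 3 left out and 31 with odor replicate 3 and vehicle replicate 1 left out. With 1 pool left out at a time it was 12 to 38. Of all genes 50.8%, 14.8%, 20.1%, 16.2% and 15% were higher in the first 5 settings and 13.6% to 16.5% in the last. In odor pools (8) the count was 60, 3, 4 and 5 under centring, ordinary variances and the 2 combined omissions, and 4 to 11 with 1 pool left out. There 33.1%, 5.97%, 5.85% and 6.51% of genes were higher in the first 4 settings and 4.98% to 8.47% in the last. In vehicle pools (3) the count was 8 with centring, 15 without odor replicate 3 and vehicle replicate 1, and 0 to 6 with 1 pool left out. There 19.6%, 6.98% and 5.18% to 10.3% of genes were higher. Centring moved the part of all gene calls that were higher from 42.9% to 78.5% in odor and from 45.1% to 67.6% in vehicle pools. With no replicate block, the pools not entered, 22, 11 and 3 members passed over both arms, in odor and in vehicle pools. Of all genes 16.7%, 6.79% and 7.4% were then higher. A replicate block by number across the arms left 0 members in the 3 odor comparisons. The median of complex IV was 0.24 without restricted isoforms and 0.26 without Ndufa4 and Ndufa4l2, and that of complex I with both was 0.33. The cause of these changes was not tested. The 4 pools per arm limit what a log2 shift of 0.2 or 0.3 in a single gene can show, and members near background or near the top of the scale may show compressed differences.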

Other observations

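On the array 9 unnamed probes carry a chromosome code for the mitochondrial genome in their identifiers, a code that matched the RefSeq chromosome for 99.99% of 19508 named probes. Their mean GFP+ minus GFP- differences over the 8 pools ran from -0.25 to 0.06, and 7 of the 9 had levels over 16 on all arrays. These are values of probes, and which mitochondrial transcripts they read is not known here.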
